A study of Mus musculus with 2 samples.

Results

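Proliferation-high and proliferation-low melanoma spots were set against each other inside each of 2 B16.F10 tumour sections. A spot is a small printed area of the Visium slide that captures RNA from several cells at once. Spots were eligible when they held at least 10000 UMIs (unique molecular identifiers, 1 per captured molecule) and when the share of their UMIs from Dct, Tyrp1, Pmel and Mlana, genes of pigment cells, was at or above the median of their section. That median was 4.30% for KO and 3.69% for WT. Members were selected on the summed CPM (UMIs scaled to a common total) of Mki67, Top2a and Cdk1 in each eligible spot, of which the top and bottom 15% were kept. The fourth ranking gene of the rule, Ccnb1, was not analysed here, so 3 of 4 ranking genes were used. The KO section gave 201 proliferation-high and 201 proliferation-low spots out of 1343 eligible and 2746 in all. The WT section gave 221 and 221 out of 1473 eligible and 3066 in all. Both sections together hold 5812 spots.

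The KO section came from a tumour grown in a Foxp3-Cre × CK2b-fl/fl mouse, in which Cre follows the Foxp3 gene of regulatory T cells and Csnk2b, the regulatory subunit of protein kinase CK2, carries loxP sites. The WT section came from a tumour in a mouse whose genotype label reads wild-type and whose sample title and growth protocol read Csnk2bfl/fl. The Cre and floxed alleles belong to the host and not to B16.F10, a transplanted mouse melanoma line, and the hosts were untreated mice aged 8 to 16 weeks whose tumours were taken at day 15. There was 1 section per genotype, so genotype, mouse and section cannot be told apart, and the results below are comparisons within a section given side by side.

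Cells that divide copy their DNA in S phase, part it in mitosis, and switch on the genes for each step in turn. E2F factors open the S phase programme, and the DREAM and MuvB complexes with B-MYB and FOXM1 govern the later G2 and M programme, in part through a promoter element called CHR. B16 tumours grow fast, and regions far from blood vessels lack oxygen, which stabilises HIF factors and switches on glycolysis and angiogenesis genes. Mki67 encodes Ki-67, a coat protein of mitotic chromosomes, Top2a the topoisomerase that untangles replicated DNA, and Cdk1 the kinase that drives entry into mitosis.

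The promoters of the ranking genes are shown because members of the same programme stood high beside them. Each window runs from 250 bases before to 50 bases after the RefSeq start (GRCm38.p6), and capitals mark motifs on either strand. These were the CHR core TTTGAA, the CCAAT box, and an E2F core spelled TTCCCGC, or as the variant TTCGCGC, or as the other variant TTGGCGC. An E2F core read on the opposite strand can share bases with a CCAAT box. Mki67 lies at chr7:135716330-135716629, minus strand, Top2a at chr11:99024140-99024439, minus strand, and Cdk1 at chr10:69352863-69353162, minus strand. Ccnb1 (chr13:100786437-100786736, minus strand) is the ranking gene with no values here. Pclaf (chr9:65890073-65890372, plus strand), Aunip (chr4:134510749-134511048, plus strand), Lrr1 (chr12:69168564-69168863, plus strand) and Kif15 (chr9:122950831-122951130, plus strand) were among the 15 genes with the highest ratios in both sections.
Mki67: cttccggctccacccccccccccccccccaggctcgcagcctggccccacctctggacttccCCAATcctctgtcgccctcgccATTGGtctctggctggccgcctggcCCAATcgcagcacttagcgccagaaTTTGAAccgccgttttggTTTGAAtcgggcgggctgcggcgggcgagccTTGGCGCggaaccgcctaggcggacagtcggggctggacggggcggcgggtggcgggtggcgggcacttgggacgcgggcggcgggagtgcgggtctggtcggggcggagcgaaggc
Top2a: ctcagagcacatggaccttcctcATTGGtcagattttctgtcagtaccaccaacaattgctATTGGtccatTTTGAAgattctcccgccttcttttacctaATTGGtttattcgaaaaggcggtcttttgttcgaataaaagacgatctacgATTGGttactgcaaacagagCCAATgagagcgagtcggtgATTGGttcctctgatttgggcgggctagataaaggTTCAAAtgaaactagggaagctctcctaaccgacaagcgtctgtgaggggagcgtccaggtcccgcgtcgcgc
Cdk1: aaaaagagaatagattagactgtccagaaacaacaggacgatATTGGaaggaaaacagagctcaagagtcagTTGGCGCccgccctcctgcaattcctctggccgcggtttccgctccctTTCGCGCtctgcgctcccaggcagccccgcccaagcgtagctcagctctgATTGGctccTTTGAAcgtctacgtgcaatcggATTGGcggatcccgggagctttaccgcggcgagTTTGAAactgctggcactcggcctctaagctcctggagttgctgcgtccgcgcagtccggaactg
Ccnb1: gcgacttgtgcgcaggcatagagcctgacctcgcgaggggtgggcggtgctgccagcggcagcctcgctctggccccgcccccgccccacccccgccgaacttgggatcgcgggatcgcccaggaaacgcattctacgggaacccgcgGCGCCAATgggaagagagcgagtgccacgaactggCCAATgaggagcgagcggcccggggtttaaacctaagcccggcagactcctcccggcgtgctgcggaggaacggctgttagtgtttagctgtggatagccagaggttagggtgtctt
Pclaf: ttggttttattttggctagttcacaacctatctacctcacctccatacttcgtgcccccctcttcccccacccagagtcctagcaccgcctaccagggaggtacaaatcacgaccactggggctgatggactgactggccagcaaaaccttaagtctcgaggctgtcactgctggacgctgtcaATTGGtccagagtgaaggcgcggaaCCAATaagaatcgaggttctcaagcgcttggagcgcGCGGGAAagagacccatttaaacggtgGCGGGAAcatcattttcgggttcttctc
Aunip: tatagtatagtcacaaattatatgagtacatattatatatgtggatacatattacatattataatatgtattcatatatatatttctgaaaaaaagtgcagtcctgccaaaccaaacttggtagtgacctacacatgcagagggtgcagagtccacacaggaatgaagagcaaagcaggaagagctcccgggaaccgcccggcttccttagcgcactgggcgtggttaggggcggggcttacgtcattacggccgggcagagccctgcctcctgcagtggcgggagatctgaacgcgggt
Lrr1: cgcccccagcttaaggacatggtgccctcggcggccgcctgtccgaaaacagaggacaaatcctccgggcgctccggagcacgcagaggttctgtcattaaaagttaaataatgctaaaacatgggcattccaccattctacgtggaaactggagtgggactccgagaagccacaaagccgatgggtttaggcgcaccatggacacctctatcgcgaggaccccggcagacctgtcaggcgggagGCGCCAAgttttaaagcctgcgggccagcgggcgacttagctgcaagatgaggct
Kif15: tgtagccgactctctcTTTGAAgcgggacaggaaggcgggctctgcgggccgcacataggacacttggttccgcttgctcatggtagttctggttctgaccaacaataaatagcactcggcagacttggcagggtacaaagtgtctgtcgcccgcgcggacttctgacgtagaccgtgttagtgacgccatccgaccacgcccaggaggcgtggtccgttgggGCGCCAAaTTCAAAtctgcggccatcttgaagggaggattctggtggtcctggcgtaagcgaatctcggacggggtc
The windows of Mki67, Top2a, Cdk1 and Kif15 each hold 2 CHR cores, and that of Pclaf holds none but has 2 E2F cores, which start at -5 and 22 from the RefSeq start. That of Ccnb1 holds no CHR core but 2 CCAAT boxes and 1 E2F core, that of Lrr1 holds 1 E2F core alone, and that of Aunip holds none of these motifs. The CHR core was found in 20.2% of the 27025 genes with a promoter in the table, the CCAAT box in 41.1% and an E2F core in 9.20%.

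The ranking values chose the spots and are given as a description. The summed score of the 3 genes had a median of 1710 CPM in proliferation-high and 774 CPM in proliferation-low spots of the KO section, and of 1807 and 866 CPM in those of the WT section. The lowest KO proliferation-high spot stood at 1585.4 CPM and the next spot below the limit at 1585.28 CPM. The highest KO proliferation-low spot stood at 910.768 CPM and the next above at 910.846 CPM. In the WT section the limits fell between 1675.37 and 1673.84 CPM and between 999.556 and 999.962 CPM. The ranking is thus continuous, with no gap at either limit. Of the 1343 eligible KO spots, 129 (9.61%) reached the WT limit for proliferation-high spots, and 308 (22.9%) lay at or under the WT limit for proliferation-low ones. Mki67 supplied 49.2% of the ranking UMIs in KO proliferation-high spots and 34.0% in WT ones, whereas Cdk1 supplied 34.2% and 52.3%.

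**Figure D1:**
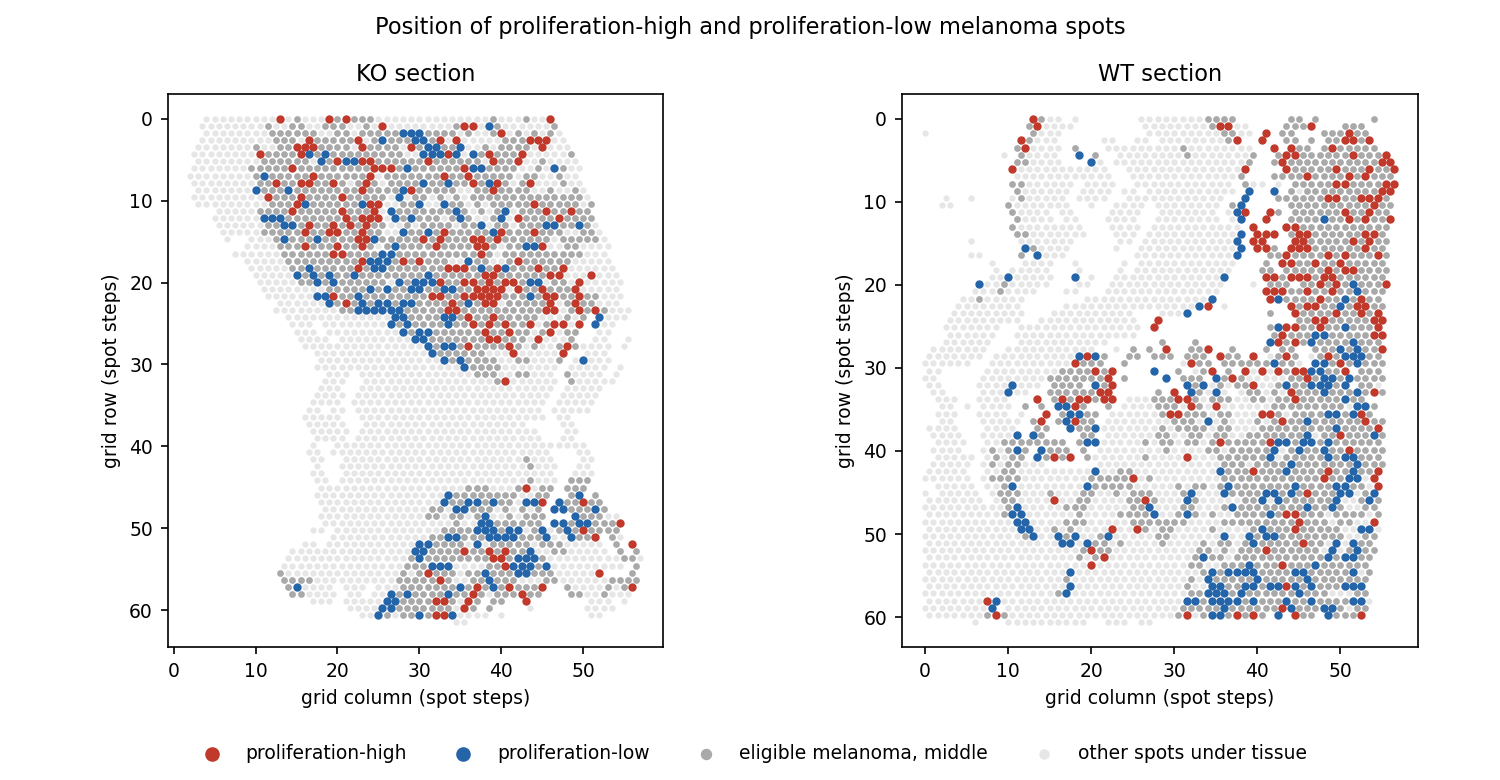
Map of the KO (left) and WT (right) sections on the hexagonal spot grid, with both axes in spot steps. Red points are proliferation-high spots (201 KO, 221 WT), blue points proliferation-low spots (201 KO, 221 WT), dark grey the other eligible melanoma spots and light grey the remaining tissue. Both kinds cluster. In the WT section 151 of 221 proliferation-high spots lie in the upper right quadrant, as do 633 of the 1473 eligible spots.

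Both kinds of spot lay in patches. Of the eligible neighbours of proliferation-high spots, 26.5% of those in KO and 26.4% of those in WT were proliferation-high too. Among the neighbours of proliferation-low spots the share was 5.22% and 6.19%, and among those of all eligible spots 15.0% and 14.4%. Proliferation-low spots had proliferation-low neighbours in 31.9% (KO) and 30.0% (WT) of cases, against 14.9% and 14.2% for all eligible spots. In the WT section, 151 of 221 proliferation-high spots fell in the upper right quadrant of the spot grid, against 633 of 1473 eligible spots. The lower right one held 110 of 221 proliferation-low spots, against 542 of 1473 eligible spots. Spots within 2 grid steps of a tissue edge made up 14.4% of KO proliferation-high and 11.9% of KO proliferation-low spots. In the WT section that share was 62.0% in proliferation-high and 38.9% in proliferation-low spots. Over all eligible spots it was 14.1% in KO and 41.8% in WT. Proliferation-high spots were also deeper, with a median of 46296 UMIs against 36925 in the KO section and 39460 against 29311 in the WT section. The authors' deposited table gives Mki67 a Moran's I, a score of how strongly neighbouring spots resemble each other, of 0.589 for KO and 0.507 for WT.

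The UMIs of each spot were split at random into 2 equal parts, spots were ranked again on one, and the ranking genes were read in the other. Summed CPM was then 1556 in proliferation-high and 908 in proliferation-low KO spots, a ratio of 1.71 (95% counting interval 1.64 to 1.79), against 2.63 in the part that did the ranking. In the WT section it was 1618 and 1051 CPM, a ratio of 1.54 (1.48 to 1.60), against 2.41. Mki67 alone had held-out ratios of 1.73 in KO and 1.45 in WT, Top2a of 1.63 and 1.62, and Cdk1 of 1.73 and 1.58. All intervals are exact conditional binomial ones and cover counting error only, since spots of 1 section are not replicates.

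Across the transcriptome, 8376 genes had at least 200 UMIs over the high and low spots of each section and were counted, with the ranking genes left out. A gene was called higher or lower when its log2 ratio was at least 0.32 in size, with no test, since the ranking used this contrast. In the KO section 821 genes (9.8%) were higher in proliferation-high spots and 785 (9.37%) lower. In the WT section 752 (8.98%) were higher and 853 (10.2%) lower. These shares of all counted genes are the base for the list counts below. In both sections 407 genes (4.86%) were higher and 382 (4.56%) lower, while 13 (0.155%) were higher in KO and lower in WT and 6 (0.0716%) the reverse. At 1.5-fold, 103 genes (1.23%) were higher in both sections and 96 (1.15%) lower. At 2-fold, 1 gene (0.0119%) was higher in both sections and 12 (0.143%) were lower. With spots ranked after thinning each to 10000 UMIs, 192 genes were higher and 207 lower in both sections at the log2 limit of 0.32. The median gene had a log2 ratio of -0.0019 in KO and 0.0066 in WT spots.

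**Figure D2:**
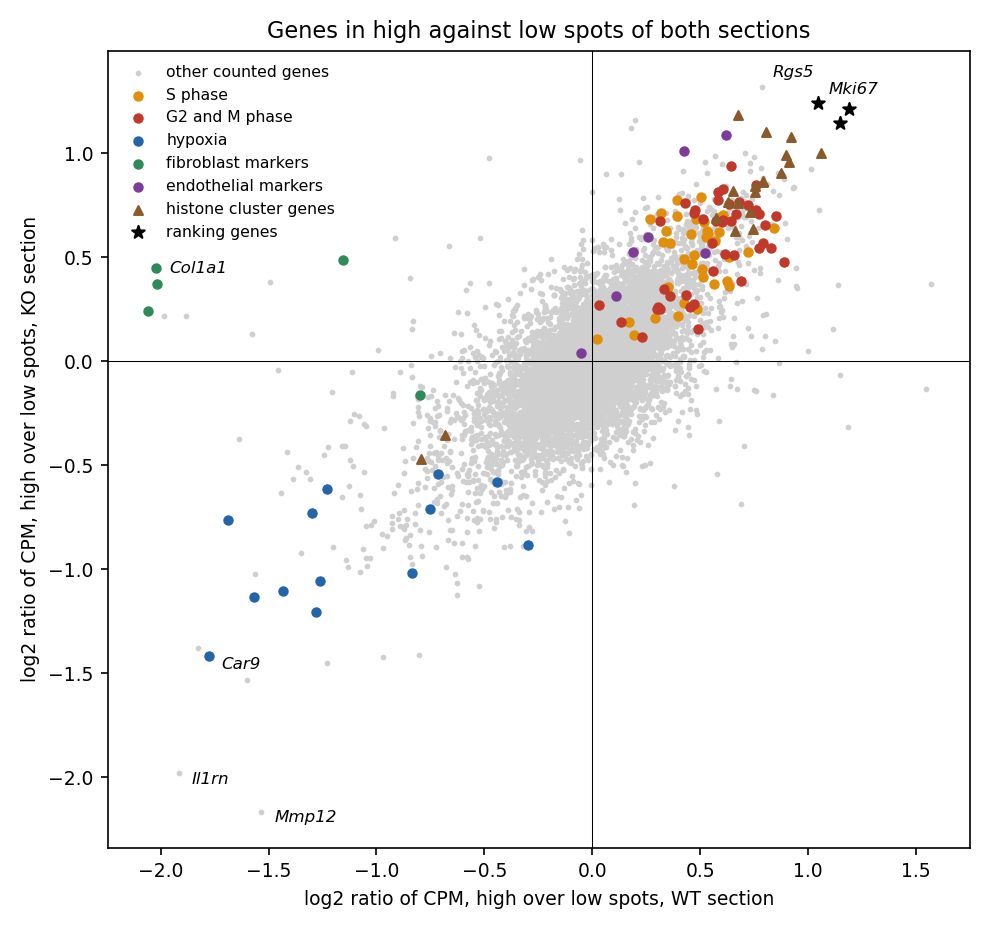
Each point is a counted gene, placed by its log2 ratio of CPM in proliferation-high over proliferation-low spots of the WT section (horizontal) and the KO section (vertical). Ranking genes are stars, histone cluster genes triangles, and coloured points members of 5 lists. Cell cycle and histone genes lie at the upper right, the hypoxia list at the lower left, and 4 of 5 fibroblast markers at the upper left.

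Histone genes were grouped by symbol after values were seen. As a description only, they had the highest median of the groups described here, the ranking genes aside. Replication-dependent histones are made in bulk during S phase to package new DNA. Of 42 genes of the histone clusters in the matrix 20 were counted, and 18 were called higher in KO and WT alike, with a median log2 ratio of 0.83 in KO and 0.75 in WT. Hist1h3a, an H3 gene, had 134 CPM in proliferation-high and 66.8 CPM in proliferation-low KO spots, and 118 and 56.4 CPM in WT spots. It was the 1 gene called higher at 2-fold in both sections, with ratios of 2.01 (1.81 to 2.23) in KO and 2.09 (1.86 to 2.35) in WT. Hist1h1d, a linker histone, had 1714 and 882 CPM in KO and 1667 and 887 CPM in WT spots, ratios of 1.94 (1.89 to 2.00) and 1.88 (1.82 to 1.94). The exceptions were Hist1h2bc, at 159 and 204 CPM in KO and 87.4 and 140 CPM in WT spots, and Hist3h2a, at 18.1 and 25.2 CPM in KO and 12.8 and 22.1 CPM in WT spots. Both were lower in proliferation-high spots of each section. Histone genes are near-identical copies, so a probe may read more than 1 of them, and values of single histone genes are uncertain for that reason. The genes whose CPM correlated best with the score over eligible spots were Ccna2 and 7 histone genes, Hist1h1d with Spearman's rho of 0.603 in KO and 0.475 in WT. Those spots share a library, depth and neighbourhood, and no p is given.

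S phase genes were higher in both sections. Of the 43 genes of that list, 37 were counted, of which 30 in the KO and 31 in the WT section were called higher, none was called lower, and 28 were higher in both (4.86% of all counted genes). Their summed level was 3907 CPM in proliferation-high and 2663 CPM in proliferation-low KO spots, and 3830 and 2754 CPM in WT spots. The median log2 ratio was 0.57 in KO and 0.48 in WT. Mcm6, a subunit of the replicative helicase, had 382 and 247 CPM in KO and 319 and 220 CPM in WT spots, ratios of 1.55 (1.46 to 1.64) and 1.45 (1.36 to 1.54). Exo1, an exonuclease of mismatch repair, had the highest mean log2 ratio of the list, with ratios of 1.56 (1.31 to 1.87) in KO and 1.80 (1.46 to 2.21) in WT. Ubr7, a ubiquitin ligase, stood lowest, 1.08 and 1.01.

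The replication machinery followed the same pattern, set beside the 9.8% (KO) and 8.98% (WT) of all counted genes called higher. In replication licensing, which loads the helicase on origins, 15 of 17 counted genes in KO and 16 of 17 in WT were higher. Mcm3, another helicase subunit, had 490 and 304 CPM in KO and 461 and 350 CPM in WT spots. DNA synthesis genes were higher for 15 of 19 in KO and 14 of 19 in WT, with Pole, a catalytic polymerase subunit, at ratios of 1.56 and 1.71. Nucleotide synthesis genes were higher for 12 of 17 in KO and 10 of 17 in WT. In that list Dut, which removes dUTP, had ratios of 1.53 and 1.41, whereas Mthfd2, a mitochondrial folate enzyme, had 0.989 and 0.873. DNA repair genes were higher for 18 of 19 in KO and 16 of 19 in WT. Pclaf, which binds the PCNA clamp and whose window holds the 2 E2F cores above, had 252 and 136 CPM in KO and 202 and 109 CPM in WT spots, ratios of 1.86 and 1.85.

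Mitotic lists, that of chromosome structure aside, stood higher still in their medians. The share of all counted genes called higher was 9.8% in KO and 8.98% in WT. Of 44 counted genes of the G2 and M list, 33 in KO and 37 in WT were higher, and none was lower. Their summed level was 6028 CPM in proliferation-high and 4279 CPM in proliferation-low KO spots, and 6082 and 4287 CPM in WT spots, with median log2 ratios of 0.66 and 0.59. The spindle and cytokinesis list was the most complete, with 25 of 26 genes higher in KO and 26 of 26 in WT. Kif15, a spindle motor, had 54.8 and 31.4 CPM in KO and 37.9 and 20.7 CPM in WT spots. Nek2, a centrosome kinase, had ratios of 1.80 and 1.69, and Ccna2, the cyclin that serves both S phase and mitotic entry, of 1.81 and 1.75. Among kinetochore genes, which attach chromosomes to the spindle, 17 of 19 were higher in each section. Ska1 had ratios of 1.87 and 1.82 there, whereas Zwint had 1.04 and 0.991. Among mitotic regulators 22 of 25 were higher in KO and 20 of 25 in WT, with Pbk, a mitotic kinase, at 1.79 and 1.91. Pttg1, securin, which restrains the separation of sister chromatids until anaphase, was an exception at 0.967 and 0.947. Chromosome structure genes, condensins and lamin B1 among them, were higher for 12 of 14 in each section. Their median log2 ratio was 0.50 in KO and 0.48 in WT.

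Promoter windows of the genes higher in both sections were searched for the same motifs. A CHR core was present for 30.9% of the 311 such genes with a window, against 13.6% of the 6783 counted genes with one. A CCAAT box was present for 59.8% against 43.2%, and an E2F core for 32.5% against 18.1%. In the G2 and M list, 24 of 38 genes with a window (63.2%) had a CHR core and 7 (18.4%) an E2F core. In the S phase list, 5 of 25 (20.0%) had a CHR core and 17 (68.0%) an E2F core. These are matches of letters and not binding sites.

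Genes that gate entry into the cycle were mixed. Among all counted genes, 9.8% in KO and 8.98% in WT were higher, and 9.37% and 10.2% lower. Of 17 counted G1 cyclin and E2F-RB genes, 8 in KO and 7 in WT were higher and 1 in each was lower. The lower one in WT, Ccnd2, a D cyclin, had 338 and 408 CPM in KO and 423 and 549 CPM in WT spots, ratios of 0.828 and 0.770. Cdk4 had ratios of 1.05 and 1.21. Of the CDK inhibitors, Cdkn1a (p21), a p53 target, had 156 CPM in proliferation-high and 273 CPM in proliferation-low KO spots, and 189 and 329 CPM in WT spots. Its ratios of 0.569 (0.531 to 0.609) and 0.575 (0.540 to 0.612) differ by less than their counting intervals. Cdkn2c (p18) had the opposite direction, at 168 and 121 CPM in KO and 156 and 94.8 CPM in WT spots, and Cdkn2d (p19) had ratios of 1.32 and 1.39. Of 9 counted p53 targets, 5 in KO and 5 in WT were lower and none was higher. Inside quadrants, the summed log2 ratio of that list ran from -0.71 to -0.23 in KO and from -0.50 to 0.15 in WT.

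Hypoxia genes were the group with the lowest medians that both sections shared. All 13 counted genes of the 22 listed were lower in KO and 12 of 13 in WT, with median log2 ratios of -0.88 and -1.26. The summed level was 1815 CPM in proliferation-high and 3616 CPM in proliferation-low KO spots, and 974 and 2060 CPM in WT spots. Only 8.46% of KO and 24.0% of WT proliferation-high spots exceeded the median proliferation-low spot. Car9, a carbonic anhydrase on the cell surface, had 222 and 595 CPM in KO and 77.8 and 267 CPM in WT spots, ratios of 0.374 (0.355 to 0.394) and 0.291 (0.267 to 0.318). Vegfa, the main angiogenic growth factor, had 239 and 551 CPM in KO and 109 and 265 CPM in WT spots. Bnip3, a mitophagy receptor, had ratios of 0.465 (0.433 to 0.499) and 0.371 (0.326 to 0.420), and Slc2a1, the glucose transporter GLUT1, had 207 and 430 CPM in KO and 130 and 311 CPM in WT spots. Kdm3a, a histone demethylase, had the highest mean log2 ratio of the list, with ratios of 0.669 and 0.735.

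The WT hypoxia contrast varied over the section. Across the 4 WT quadrants its summed log2 ratio ran from -2.17 to -0.11, and across the 3 KO quadrants with at least 10 spots of each kind from -1.17 to -0.89. The spread among spots was wide too, since the quartiles of WT proliferation-low spots ran from 938 to 2889 CPM, against 643 to 1225 CPM in WT proliferation-high spots. In the UMIs not used for ranking, hypoxia CPM was lower in each step from the lowest to the highest quintile of score. It was 3444, 2865, 2437, 2177 and 2012 CPM in KO spots and 1822, 1343, 1189, 1062 and 990 CPM in WT spots. Of 11 hypoxia genes with a promoter window, 9 held the hypoxia response core ACGTG (81.8%), against 31.4% of counted genes and 21.8% of all genes with one. The motif was chosen after the values of the list were seen. Its letters are in capitals in the windows of Car9 (chr4:43506776-43507075, plus strand) and Bnip3 (chr7:138909457-138909756, minus strand), shown as the lowest hypoxia gene and one with the core on both strands, while of the windows of Vegfa the first holds no core and the second 1.
Car9: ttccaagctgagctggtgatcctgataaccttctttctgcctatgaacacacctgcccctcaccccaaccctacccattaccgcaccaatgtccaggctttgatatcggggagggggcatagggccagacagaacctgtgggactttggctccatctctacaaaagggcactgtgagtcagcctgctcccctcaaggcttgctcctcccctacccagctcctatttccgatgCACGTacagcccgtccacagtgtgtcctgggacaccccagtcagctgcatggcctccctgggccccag
Bnip3: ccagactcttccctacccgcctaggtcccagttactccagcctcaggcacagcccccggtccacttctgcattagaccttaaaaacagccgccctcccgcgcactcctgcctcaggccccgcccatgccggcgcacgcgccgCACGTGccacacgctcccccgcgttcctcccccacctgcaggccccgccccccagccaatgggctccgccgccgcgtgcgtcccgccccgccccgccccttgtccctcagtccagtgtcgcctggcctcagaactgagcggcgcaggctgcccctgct
When spots were ranked within quintiles of hypoxia CPM, which sets the hypoxia levels nearly equal in KO (median log2 ratio 0.01, -0.41 in WT), the S phase median was 0.34 in KO and 0.39 in WT and the G2 and M median 0.50 and 0.52.

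**Figure D3:**
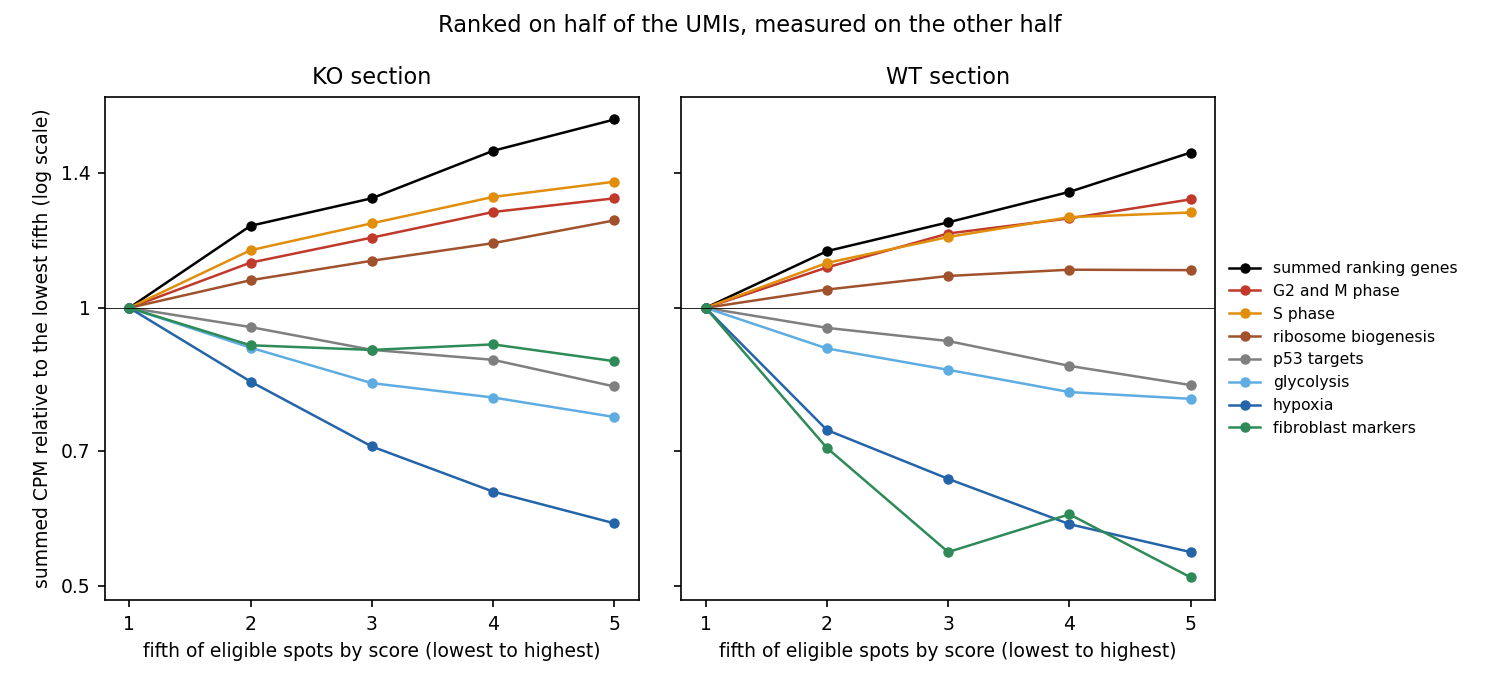
Summed CPM of 8 measures in quintiles of eligible spots, from the lowest to the highest score, relative to the lowest quintile and on a log axis, for the KO (left) and WT (right) section. Spots were ranked on one random part of their UMIs and measured on the other. In every step the S phase and G2 and M lines go up and the hypoxia and glycolysis lines go down in both sections.

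Metabolic lists split. Of 15 counted glycolysis genes, 12 in KO and 9 in WT were lower and none was higher. For all counted genes the lower share was 9.37% in KO and 10.2% in WT. The summed log2 ratio of the glycolysis list ran from -0.60 to -0.50 across the KO quadrants used. Across the WT quadrants it ran from -0.90 to 0.14. Aldoa, fructose-bisphosphate aldolase, had 3579 and 5202 CPM in KO and 2145 and 3004 CPM in WT spots. Pdk1, which diverts pyruvate from mitochondria, had ratios of 0.559 and 0.517, and Slc16a1, a lactate transporter, 1.16 and 1.11. None of 17 counted nuclear genes of the respiratory chain was called in either section, and their summed ratio was 1.06 in each. Ribosome biogenesis genes were higher for 11 of 19 in KO and 3 of 19 in WT, beside 9.8% and 8.98% of all counted genes. The WT count was thus close to that share. Median log2 ratios of the list were 0.40 in KO and 0.13 in WT, and summed ratios 1.30 and 1.13. Dkc1, a pseudouridine synthase of ribosomal RNA, had 154 and 98.6 CPM in KO and 144 and 109 CPM in WT spots. Stress genes under ATF4 were lower for 8 of 16 in KO and 9 of 16 in WT, with Trib3, a pseudokinase, at 0.535 and 0.479. Of 7 counted immediate early and heat shock genes, 4 in each section were lower and none was higher. Jun, an immediate early factor, had 52.0 and 139 CPM in KO and 55.6 and 97.1 CPM in WT spots, and Fos had ratios of 0.365 and 0.426. Hsph1, of the same list, had log2 ratios of 0.19 in KO and 0.26 in WT.

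**Figure D4:**
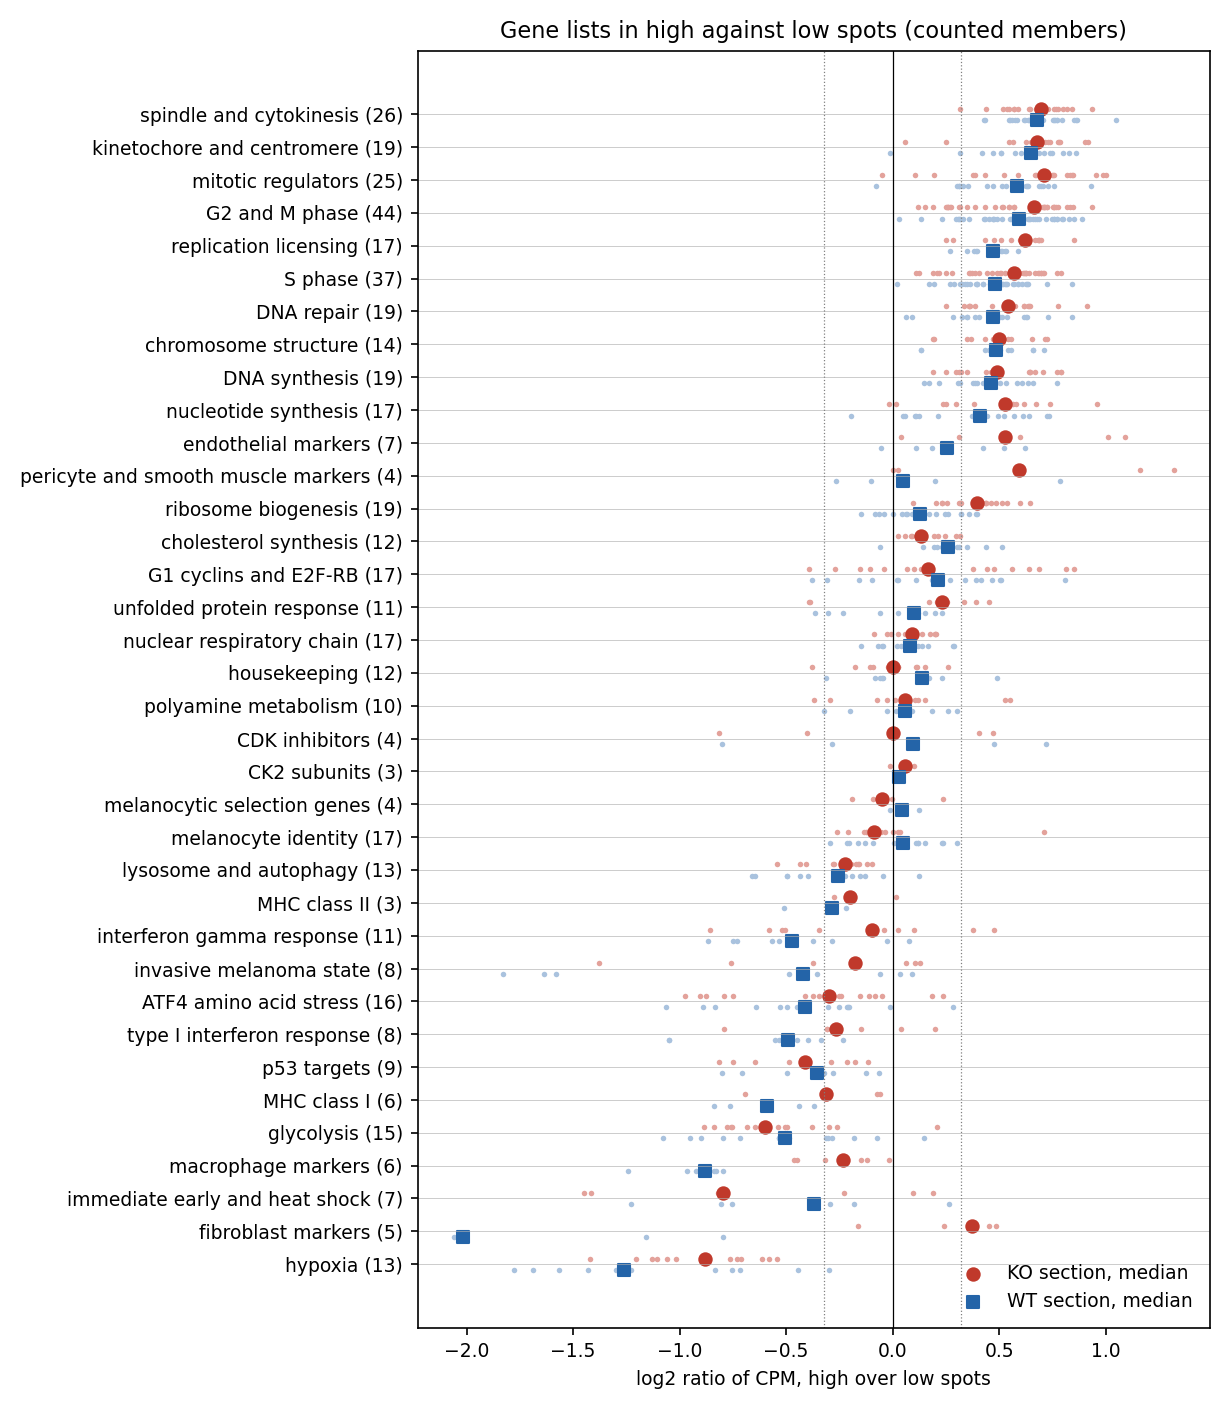
Log2 ratio of CPM in proliferation-high over proliferation-low spots for gene lists with at least 3 counted members, whose number stands in brackets. Small points are genes, large red circles the KO median and blue squares the WT median, and dotted lines mark the limit for a call. Cell cycle lists lie to the right in both sections, hypoxia and glycolysis to the left, and the fibroblast list at 0.37 in KO and -2.02 in WT.

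Pigment cell genes had similar levels in both kinds of spot. Tyrp1, a melanosome enzyme used for selection, had 9700 and 9725 CPM in KO and 9238 and 8907 CPM in WT spots. The other selection genes had ratios of 0.937 in KO and 1.09 in WT (Dct), 0.877 and 1.03 (Pmel), and 1.18 and 0.993 (Mlana). None of the 4 was called in either section. Eligibility had required a high share of these 4 genes in both kinds of spot. Among 17 counted identity genes not used for selection, 1 in KO and none in WT was higher and none was lower, with median log2 ratios of -0.09 and 0.05. Tyr, tyrosinase, had ratios of 0.919 and 0.892. The 3 CK2 subunits were near equal, with Csnk2b at 397 and 401 CPM in KO and 418 and 406 CPM in WT spots (ratios 0.990, 0.943 to 1.04, and 1.03, 0.981 to 1.08). In spots that mix cells, fewer cells of a type and less RNA per cell cannot be told apart, and this holds for every list here.

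Several markers of other cells differed between the 2 kinds of spot, not always alike in both sections. Their part in the other results was not tested. Endothelial markers were called higher for 5 of 7 counted genes in KO and 3 of 7 in WT. Of all counted genes, 9.8% in KO and 8.98% in WT were higher. Plvap, of fenestrated vessels, had 67.1 and 33.3 CPM in KO and 74.6 and 55.6 CPM in WT spots. Kdr, the main VEGF receptor, had ratios of 2.14 and 1.54. Rgs5, a pericyte gene, had 29.9 and 11.9 CPM in KO and 36.6 and 21.1 CPM in WT spots. It stood highest of the 4 counted pericyte and smooth muscle markers, of which 2 in KO and 1 in WT were called higher, and the median log2 ratio was 0.59 in KO and 0.05 in WT. Mcam, a surface protein of such cells, had 103 and 103 CPM in KO and 87.4 and 105 CPM in WT spots, and the summed ratio of the list was 1.31 in KO and 0.987 in WT. Over all 13 endothelial markers the summed level was 499 and 402 CPM in KO and 542 and 504 CPM in WT spots. In the UMIs not used for ranking, that sum was 496 and 404 CPM in KO and 518 and 517 CPM in WT spots. The counting interval of the held-out ratio was 1.15 to 1.31 in KO and 0.943 to 1.07 in WT. The higher endothelial sum was thus seen in held-out UMIs of the KO section and not in those of the WT section. Ranked within quintiles of hypoxia CPM, the endothelial median log2 ratio was -0.07 in KO and 0.08 in WT. Epas1, HIF-2 alpha, was among the 15 genes with the highest ratios in both sections, at 16.5 and 8.65 CPM in KO and 23.5 and 11.6 CPM in WT spots. Its log2 ratio under that ranking was -0.03 in KO and 0.47 in WT.

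Macrophage markers were lower for 2 of 6 counted genes in KO and 6 of 6 in WT, beside 9.37% and 10.2% of all counted genes. Their summed level over 15 markers was 251 and 295 CPM in KO and 399 and 753 CPM in WT spots. The median spot had 79.6 and 174 CPM in KO and 294 and 583 CPM in WT. Of proliferation-high spots, 29.9% in KO and 25.8% in WT exceeded the median proliferation-low spot. C1qc, a complement gene, had ratios of 0.989 in KO and 0.559 in WT. Mmp12, macrophage elastase, was among the 15 genes with the lowest ratios in both sections, with 17.6 and 79.1 CPM in KO and 19.3 and 55.8 CPM in WT spots. Spp1, osteopontin, also among them, had 24.9 and 72.1 CPM in KO and 47.6 and 145 CPM in WT spots, and Il1rn, the IL-1 receptor antagonist, ratios of 0.252 (0.183 to 0.341) and 0.264 (0.191 to 0.359). Others among the 15 lowest were Ccn1, a matrix protein of injured tissue, at 0.384 and 0.281, Ccl12, a monocyte chemokine, at 0.494 and 0.474, and Ero1l, an oxidase of the endoplasmic reticulum, at 0.456 and 0.338.

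Fibroblast markers stood on opposite sides in the sections, a difference that was not tested. Of 5 counted markers, 3 in KO were higher, and 5 in WT were lower. Col1a1, type I collagen, had 63.8 CPM in proliferation-high and 49.3 CPM in proliferation-low KO spots, and 171 and 693 CPM in WT spots. The summed level over 12 markers was 732 and 759 CPM in KO, a ratio of 0.964 (0.931 to 0.999), so the KO sum and the KO median of genes (0.37 on the log2 scale) have different signs. In WT it was 1068 and 2758 CPM, a ratio of 0.387 (0.378 to 0.397). The WT proliferation-low group held some very rich spots, since its median spot had 959 CPM and its upper quartile 3048 CPM. The WT fibroblast median was -1.16 without rim spots, and the KO median was -0.19 with a melanocytic share at or above the 75th percentile. Ranked within quintiles of fibroblast CPM, the WT S phase median was 0.43, the G2 and M median 0.59 and the hypoxia median -1.12.

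**Figure D5:**
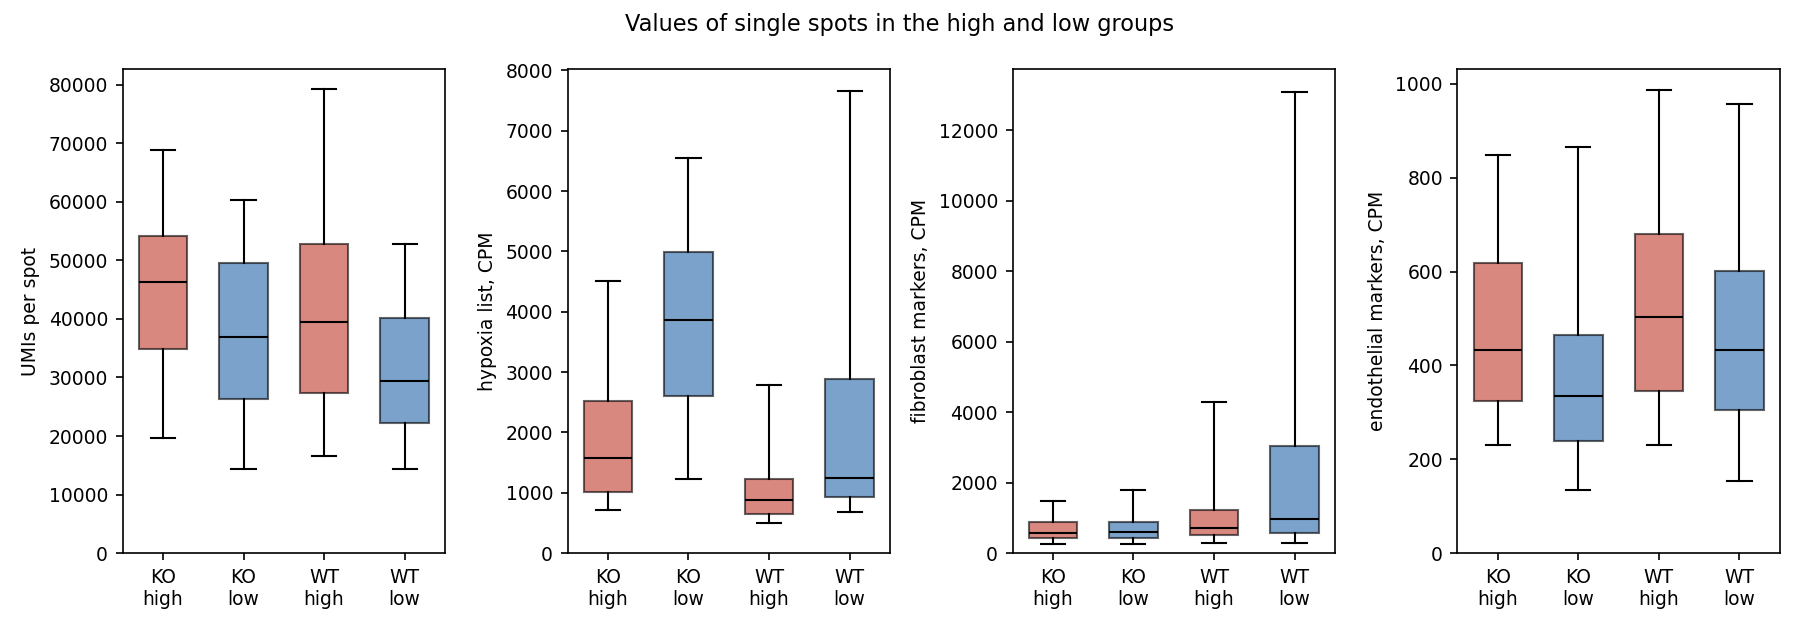
UMIs per spot and summed CPM of the hypoxia list, fibroblast markers and endothelial markers in single spots, for KO high, KO low, WT high and WT low groups from left to right. Boxes span the quartiles with the median as a line, and whiskers the 5th to 95th percentile. The groups overlap in all panels, the median hypoxia level being 1585 and 3858 CPM in KO and 876 and 1249 CPM in WT spots.

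T cell markers were sparse, and none of the 11 was counted. Over 11 markers, KO proliferation-high and proliferation-low spots held 280 and 234 UMIs (31.0 and 30.7 CPM), and WT spots 99 and 126 UMIs (10.7 and 17.8 CPM). The summed ratios were 1.01 (0.846 to 1.21) and 0.603 (0.459 to 0.791). A list of 15 genes of tissues absent from the tumour, which shows the probe background, had 12.7 and 10.7 CPM in KO and 8.22 and 8.18 CPM in WT spots. Foxp3, the factor whose Cre defines the KO, had 8 and 1 UMIs in KO and 3 and 4 UMIs in WT spots, ratios of 6.76 (0.906 to 300) and 0.575 (0.0843 to 3.40). Cd8a had 34 and 21 UMIs in KO and 4 and 10 UMIs in WT spots. No difference between proliferation-high and proliferation-low spots was detectable for either gene at this depth.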

How the data were processed

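Each section was assayed with Visium CytAssist on formalin-fixed tissue cut at 10 µm, a probe-based method, per the labels' protocols. The authors deposited UMI counts per gene and spot, as whole numbers that were not normalized. Per the file headers, Space Ranger 2.1.0 wrote them. Besides that tool, mm10 and featureCounts stand in the submitters' processing notes. The deposited tables also give Moran's I, a score computed by the authors' software, per the file headers, and it was copied unchanged.

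UMIs were summed over the spots of a group and scaled to the group's total (CPM), which was 9039692 and 7633214 UMIs in KO and 9245254 and 7092281 UMIs in WT proliferation-high and proliferation-low spots. Log2 ratios add 0.5 to each count. Intervals are exact conditional binomial at 95%. No p-value was computed, since there is 1 section per genotype and the ranking used the contrast. The method was tested on simulated data.

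The members, lists and motifs were chosen with earlier results of these data known. The 50 lists hold 662 genes. Ribosomal protein and mitochondrial genome lists were not analysed here. Named genes are the ranking and selection genes, Csnk2b, Foxp3, Cd8a and Cd4, the 15 highest and 15 lowest in both sections, the 6 that differ most between sections in each direction, the 8 most correlated with the score, and per list the 3 with most UMIs, the highest and the lowest. Predicted genes were left out. Not every gene that this rule names is reported here. The histone cluster genes were grouped, and Hist1h2bc and Hist3h2a named, after their values were seen. For 11 symbols on 2 rows, the row with more UMIs over both sections was used. The sections share 2138 position barcodes of the slide grid. The alternatives numbered 25, 2 of them added after seeing the data, with edgeR 4.0.16 for TMM factors. Python 3.11.15 and scipy 1.17.1 were used.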

Additional observations from a re-analysis of the deposited data

Results flagged for a closer look

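Of the 13 genes called higher in KO and lower in WT and the 6 called the other way, those that the naming rule covers are given here, with the 1 list whose median did so (log2 limit 0.32), as log2 ratios of proliferation-high over proliferation-low spots. The difference between sections was not tested in any of them, since there is 1 section per genotype. The fibroblast list had a median of 0.37 in KO and -2.02 in WT. Within it Col1a2 had 0.45 in KO and -2.02 in WT, Col1a1 0.37 and -2.02, and Col6a1 0.49 and -1.16, and the matrix proteoglycan Bgn had 0.38 and -1.49. Hbb-bs, adult beta globin of red blood cells, had 0.60 in KO and -0.52 in WT, and across quadrants it ran from 0.15 to 2.62 in KO and from -1.41 to 1.86 in WT. Asb2, a ubiquitin ligase subunit, had -0.68 in KO and 0.69 in WT. Acacb, acetyl-CoA carboxylase beta, had -0.54 in KO and 0.58 in WT.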

How the results depend on the processing

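No paired analysis was possible because there is 1 section per genotype. Counts of genes higher and lower in both sections (407 and 382) came to 192 and 207 when spots were ranked after thinning to 10000 UMIs, 169 and 109 with at least 1000 UMIs per gene (fewer genes counted), 103 and 96 at 1.5-fold and 1 and 12 at 2-fold. The lower count was 236 with the melanocytic share at or above the 75th percentile and 643 with at least 50 UMIs per gene, and the higher count 221 within quintiles of hypoxia CPM. Other counts stayed within 1.5 times. The 468 list medians and gene ratios gave 10764 values, to which the 1.5-fold and 2-fold limits do not apply. Of these values, 8833 were classed as the same, 1892 as moved and 39 as reversed. In 279 results the main log2 ratio was at least 0.32 in size. These include the ranking genes and genes with too few UMIs to be counted, such as Foxp3. Of their 6417 values, 5972 kept that limit in the same direction. The 39 reversed values are listed next, and their cause was not tested. With the 75th percentile, KO values were -0.19 (fibroblast median, Col1a2), -0.33 (Col1a1), -0.17 (Fabp4) and -0.21 (Hbb-bs), and WT Kdr was -0.033. Without Mki67 in the ranking, KO values were -0.061 (fibroblast median, Col1a1) and -0.066 (Hbb-bs). After thinning they were -0.034 (fibroblast median, Col1a2), -0.10 (Bgn) and -0.22 (Hbb-bs), and in held-out UMIs -0.15 (Bgn), -0.24 (Mettl24) and -0.0065 (Chek2). WT Asb2 was -0.056 within quadrants, and WT Cd74 0.042 without rim spots and 0.17 within quintiles of fibroblast CPM. Within quintiles of hypoxia CPM, KO medians were 0.0067 (hypoxia), -0.46 (fibroblast), -0.071 (endothelial) and -0.18 (pericyte), and KO genes were -0.030 (Epas1), -0.11 (Hist1h3b), 0.0067 (Vegfa), 0.052 (Ero1l), 0.078 (Bnip3), -0.33 (Col1a2), -0.57 (Col1a1, Bgn), 0.023 (Atf4), -0.070 (Cxcl10), -0.46 (Col6a1), -0.26 (Cdh5), -0.14 (Rgs5), -0.28 (Fabp4), -0.70 (Hbb-bs) and 0.0044 (Pgk1).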

Other observations

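In WT proliferation-high spots, most counted genes of the MHC class I and interferon lists were lower. In KO ones few passed the limit for a call, apart from the interferon gamma list. The share of all counted genes that were lower was 9.37% in KO and 10.2% in WT. Differences between the sections were not tested. MHC class I genes were lower for 1 of 6 counted in KO and 6 of 6 in WT. The KO log2 ratios of the 6 ran from -0.69 to -0.058, with a median of -0.31, close to the limit for a call. The summed ratio of the MHC class I list was 0.804 in KO and 0.710 in WT. B2m, the light chain of MHC class I, had 1629 and 2008 CPM in KO and 1966 and 2662 CPM in WT spots. Type I interferon genes were lower for 1 of 8 in KO and 7 of 8 in WT. Their summed WT ratio was 0.683, whereas inside the 4 WT quadrants the log2 ratio ran from -0.26 to 0.12. In the interferon gamma list, 2 of 11 counted genes were higher and 5 lower in KO, and none was higher and 8 lower in WT. The summed ratio of that list was 0.943 in KO and 0.808 in WT. Inside the WT quadrants its log2 ratio ran from -0.26 to 0.14. Of 3 counted MHC class II genes, none in KO and 1 in WT was lower. Cxcl10, a chemokine that draws T cells, had 169 and 121 CPM in KO and 283 and 288 CPM in WT spots. Lysosome and autophagy genes were lower for 3 of 13 in KO and 6 of 13 in WT, with Ctsb, cathepsin B, at 0.741 and 0.634. Cholesterol synthesis genes were higher for none of 12 in KO and 3 of 12 in WT, with Sqle, squalene epoxidase, at 1.10 and 1.35. The share of all counted genes that were higher was 9.8% in KO and 8.98% in WT.

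Some WT ratios were larger over the whole section than inside it. Mbp, myelin basic protein, had 265 and 291 CPM in KO and 496 and 295 CPM in WT spots, a WT log2 ratio of 0.75, but from -0.43 to 0.34 inside the 4 WT quadrants. Padi2, a peptidylarginine deiminase, had 92.1 and 96.4 CPM in KO and 75.8 and 34.1 CPM in WT spots, a WT log2 ratio of 1.15, and from 0.49 to 1.02 inside the quadrants.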
